A study of Mus musculus with 2 samples.

Results

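The transcripts of 10 immediate early genes, *Fos*, *Fosb*, *Jun*, *Junb*, *Jund*, *Egr1*, *Ier2*, *Atf3*, *Btg2* and *Dusp1*, were followed across the cell types of the newborn mouse telencephalon. They were chosen by name out of the 27998 genes that the count matrices list, and all 10 had reads in both libraries. The measurement was single-cell RNA sequencing on the 10x Genomics Chromium platform, in which each captured transcript end carries a unique molecular identifier (UMI), so that 1 UMI stands for 1 captured molecule. Wild type mice (WT) and STINGf/f;Nestin-Cre mice (cKO) gave 1 library each, all of them C57BL/6 and at postnatal day 0. The sample label gives the control genotype as WT, while the study's account of the single-cell data also names it STINGfl/fl. In the cKO mice the floxed STING gene is deleted where Cre recombinase is made from the Nestin promoter, that is, in neural progenitors and the cells they give rise to. Microglia and most vascular cells do not come from that lineage. How many animals gave each library is not stated. With 1 library per genotype there is no replicate check on any difference between them, no test was run, and every interval below covers counting error only.

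Immediate early genes are transcribed within minutes of a stimulus from factors that are already present in the cell, and their messages are short-lived. Fos and Jun family proteins pair through leucine zippers to form the AP-1 transcription factor, Egr1 is a zinc finger factor of the same response, Btg2 and Ier2 are early response proteins of other families, and Dusp1 removes phosphate from MAP kinases and so ends the signal. In brain these genes are widely read as marks of recent neuronal activity, but growth factors and the handling of cells also induce them. Per the study's methods the tissue was dissociated in warm papain before capture, and no undissociated P0 sample is part of these data, so levels present in tissue and levels gained during dissociation cannot be told apart.

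The sequences just upstream of 3 members are printed because *Fos*, *Fosb* and *Btg2* shared the cell group of highest level in the results that follow. RefSeq (GRCm38.p6) held a promoter window for 8 of the 10 members, without *Egr1* and *Ier2*. Each line gives the 250 bases before the annotated start, 5′ to 3′ on the strand of the gene, with matches to the cAMP response element (CRE, TGACGTCA), to its core (TGACG) and to the TATA box (TATAAA), on either strand, in capitals. The positions are chr12:85473640-85473889 for *Fos*, chr7:19310046-19310295 for *Fosb* and chr1:134079156-134079405 for *Btg2*.
Fos: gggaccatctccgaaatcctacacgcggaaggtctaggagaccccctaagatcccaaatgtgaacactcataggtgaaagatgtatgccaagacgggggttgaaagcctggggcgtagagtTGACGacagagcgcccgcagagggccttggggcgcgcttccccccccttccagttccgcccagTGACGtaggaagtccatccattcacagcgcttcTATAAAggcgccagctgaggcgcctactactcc
Fosb: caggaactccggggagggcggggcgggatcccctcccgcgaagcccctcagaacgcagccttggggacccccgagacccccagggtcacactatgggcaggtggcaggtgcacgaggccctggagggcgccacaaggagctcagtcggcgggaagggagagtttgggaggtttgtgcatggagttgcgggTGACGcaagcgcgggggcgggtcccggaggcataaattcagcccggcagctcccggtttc
Btg2: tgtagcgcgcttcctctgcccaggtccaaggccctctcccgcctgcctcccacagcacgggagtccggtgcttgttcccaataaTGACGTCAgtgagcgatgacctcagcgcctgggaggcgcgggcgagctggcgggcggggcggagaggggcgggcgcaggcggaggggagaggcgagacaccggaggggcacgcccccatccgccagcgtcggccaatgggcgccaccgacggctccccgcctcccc
The core was found in 6 of the 8 windows (*Fos*, *Fosb*, *Junb*, *Atf3*, *Btg2* and *Dusp1*) and in 17.7% of all 32817 RefSeq windows of this length. The full CRE, which contains the core on both strands, was found in *Btg2* and *Dusp1* and in 1.55% of all windows, and the TATA box in *Fos* alone, against 12.4% of all windows. Neither the AP-1 site TGANTCA (6.75% of all windows) nor the CArG box (1.47%) was found in any of the 8 windows. A match describes letters and not binding, and the windows are too short to hold elements further upstream.

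The matrices held 10715 WT and 9198 cKO barcodes. At least 500 genes, at most 10% mitochondrial UMIs and removal of called doublets left 6582 WT cells (median 6539 UMIs) and 5949 cKO cells (median 7520 UMIs), and 8 barcodes were shared between the kept cells of the libraries. *Tmem173*, which encodes STING, had 126 UMIs in WT and 18 in cKO. *Xist*, made from the inactive X chromosome of females, had 10 UMIs in WT and 70755 in cKO, while *Ddx3y* and *Eif2s3y* of the Y chromosome had UMIs in WT only, so genotype and sex cannot be told apart. Cells were put into groups by how many distinct markers of a cell type they had a UMI of, and none of the members was a marker. The group names carry -like since only markers define them, so a higher level of those markers in their own group follows from how it was formed and is no check of its name. The groups took in 85.7% of WT and 82.0% of cKO cells. The label calls the tissue telencephalic and the study's methods name the cerebral cortex, while 19.3% of WT and 15.1% of cKO GABAergic neuron-like cells had striatal markers alone. Free RNA was low: 6 neuronal and progenitor genes reached 2.18% to 5.40% of their all-cell level in endothelial-like and microglia-like cells.

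In the GRCm38 annotation (GENCODE vM21), *Fos* lies at chr12:85473890-85477273 on the plus strand, *Fosb* at chr7:19302696-19310051, *Jun* at chr4:95049034-95052222 and *Btg2* at chr1:134075170-134079120, the last 3 on the minus strand. *Junb* (chr8:84974484-84978718, minus strand), *Jund* (chr8:70698949-70700616, plus strand) and *Ier2* (chr8:84661331-84662852, minus strand) share chromosome 8. *Dusp1* (chr17:26505590-26562128) and *Atf3* (chr1:191170296-191218039) are on the minus strand, and *Egr1* is on chromosome 18. No transcript of another gene matched the last 600 bases of a member at 95% identity over 90 bases or more. *Jun* overlaps the antisense gene *Junos* (69 UMIs in WT and 21 in cKO against 16752 and 15772 of *Jun*) and *Junb* overlaps *Prdx2* on the other strand by 351 bases. *Prdx2* had 60179 and 48051 UMIs, and the strand setting of the counting is not given in the sources used here. Any part of *Prdx2* reads in the *Junb* values was not tested. *Dusp1* overlaps *Ergic1* by 640 bases on the other strand in the same way.

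*Fos* was highest in radial glia/astrocyte-like cells of both libraries and low in neurons. Its level, in CPM (UMI counts scaled to the same total in every group), was 1285 in WT and 1091 in cKO radial glia/astrocyte-like cells, against 91.5 and 83.4 in excitatory neuron-like cells. The log2 difference between these groups was 3.81 in WT (95% counting interval 3.74 to 3.89) and 3.71 in cKO (3.63 to 3.79). Although they were only 9.42% of the WT and 7.75% of the cKO cells, radial glia/astrocyte-like cells held 41.7% and 39.8% of all *Fos* UMIs. Ependymal-like cells (579 and 550.1 CPM) and microglia-like cells (520 and 535 CPM) followed and did not differ beyond their counting intervals from each other in either library. Cycling progenitor-like cells (404 and 335 CPM) and oligodendrocyte precursor-like cells (328 and 301 CPM) stood in the middle, and mural-like cells had 304 and 535 CPM and endothelial-like cells 145 and 249 CPM. GABAergic neuron-like (70.7 and 109.5 CPM), intermediate progenitor-like (68.8 and 62.1 CPM) and Cajal-Retzius-like cells (57.8 and 102 CPM) lay at the low end with the excitatory group. The 5% of cells richest in *Fos* by raw count had 56.8% and 48.9% of its UMIs in GABAergic neuron-like cells. The shares were 58.6% and 73.5% in intermediate progenitor-like, 39.1% and 42.0% in excitatory neuron-like, and 17.8% and 22.5% in radial glia/astrocyte-like cells. Such a share also rises as the count per cell falls, so its size does not compare the groups. In WT, *Fos* had 609 UMIs in 1474 GABAergic neuron-like cells and 5460 in 620 radial glia/astrocyte-like cells. The order of the 11 groups was nearly the same in both libraries (Spearman's rho 0.93 over 11 groups, a description).

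**Figure D1:**
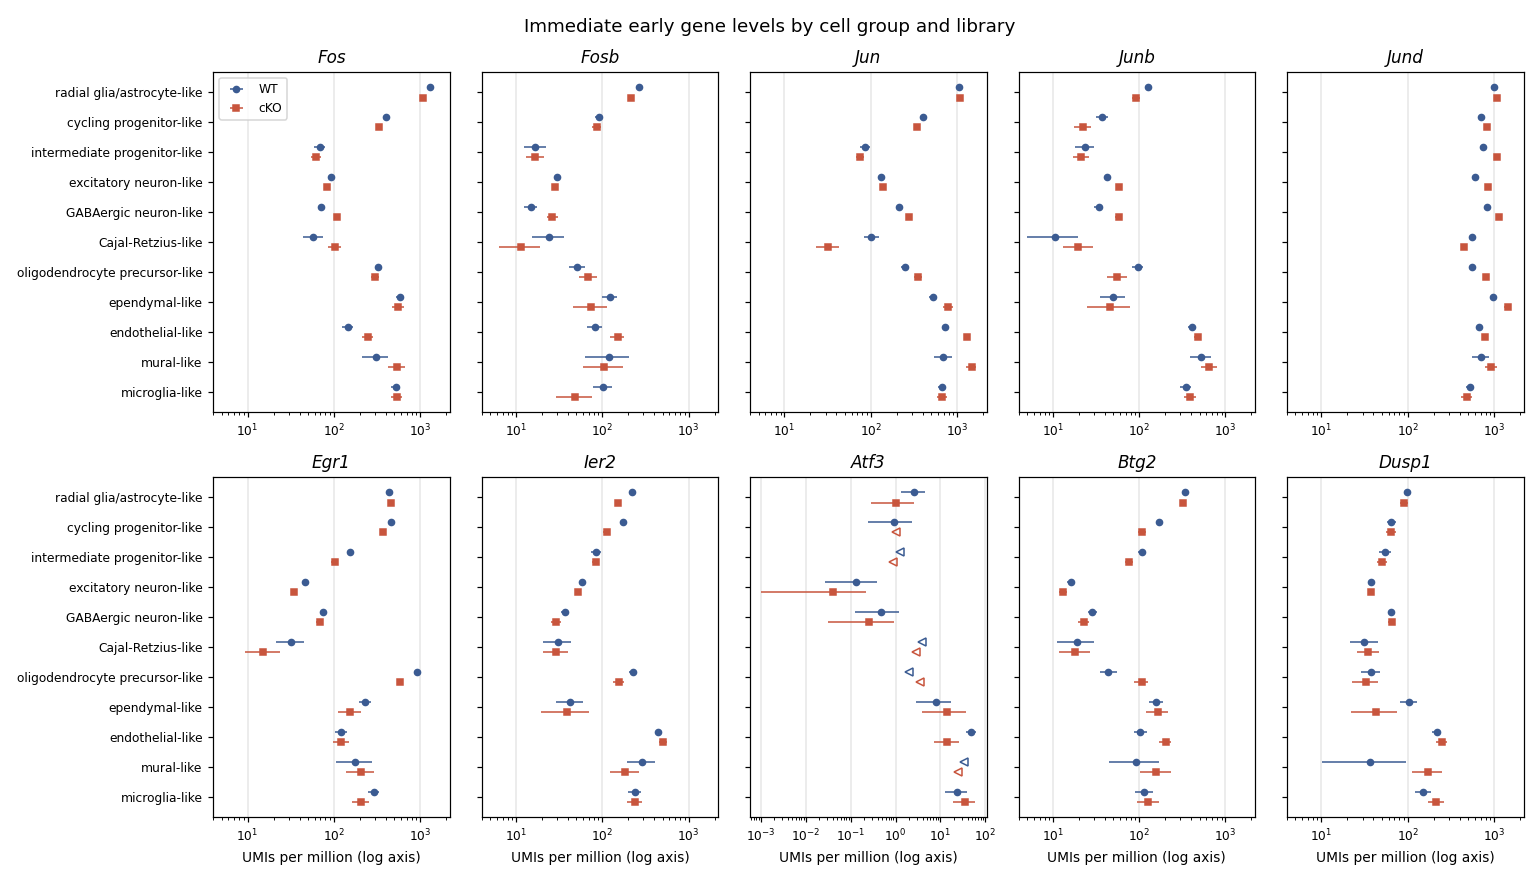
Level of each of the 10 immediate early genes, in CPM on a log axis, in 11 marker-defined cell groups of the WT library (circles) and the cKO library (squares), with exact 95% Poisson intervals. Open triangles for *Atf3* mark the upper limit where no UMI was counted. *Fos*, *Fosb* and *Btg2* were highest in radial glia/astrocyte-like cells and *Egr1* in oligodendrocyte precursor-like cells of both libraries.

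*Fosb*, the close relative of *Fos*, had the same leading group. Its level was 269 CPM in WT and 217 CPM in cKO radial glia/astrocyte-like cells, which was 9.03 and 7.73 times the level of excitatory neuron-like cells (29.8 and 28.0 CPM). Cycling progenitor-like cells had 91.0 and 86.1 CPM and oligodendrocyte precursor-like cells 51.5 and 68.0 CPM. The lowest level was 14.9 CPM in GABAergic neuron-like cells of the WT library, and 11.4 CPM in the Cajal-Retzius-like cells of the cKO library, from 15 UMIs. Over the whole order 7 of 10 neighbouring groups in WT and 8 of 10 in cKO had overlapping intervals, so most of the order below radial glia/astrocyte-like cells is not resolved.

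*Jun*, the usual partner of Fos in AP-1, was high in radial glia/astrocyte-like cells and in the vascular groups alike. The radial glia/astrocyte-like level was 1055 CPM in WT and 1078 in cKO. Endothelial-like cells had 727 and 1315 CPM, and mural-like cells, only 22 in each library, had 691 and 1472 CPM, so the leading group was radial glia/astrocyte-like in WT and mural-like in cKO. The intervals of the mural-like and endothelial-like groups overlapped in both libraries. Microglia-like cells (661 and 672 CPM) and ependymal-like cells (522 and 781 CPM) came next in both libraries. In WT the mural-like and microglia-like intervals overlapped. Excitatory neuron-like cells had 130.1 and 139 CPM and GABAergic neuron-like cells 213 and 275 CPM. *Jun* was thus higher in GABAergic than in excitatory neuron-like cells of both libraries, whereas *Fos* stood in one order of them in WT and in the other order in cKO.

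*Junb* had its highest levels in cells outside the neural lineage. It was at its peak in mural-like cells (516 and 647 CPM), then in endothelial-like (405 and 475 CPM) and microglia-like cells (344 and 392 CPM), and the intervals of neighbours among these 3 overlapped in both libraries. Next came radial glia/astrocyte-like cells with 127 and 92.9 CPM. Excitatory neuron-like cells had 42.8 and 58.0 CPM and cycling progenitor-like cells 36.9 and 22.4 CPM, and Cajal-Retzius-like cells were lowest (10 UMIs in WT and 26 in cKO). *Jund*, the member of the Jun family known for steady expression, was by contrast spread almost evenly. Its highest and lowest group differed 1.92 times in WT (radial glia/astrocyte-like, 1013 CPM, over microglia-like, 528 CPM) and 3.23 times in cKO (ependymal-like, 1444 CPM, over Cajal-Retzius-like, 447 CPM). The same span was 22.2 and 17.6 times for *Fos*.

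*Atf3*, a stress-induced factor that pairs with Jun proteins, was sparse and highest in endothelial-like and microglia-like cells. Of its 203 WT UMIs 97 were in the 244 cells with markers of several types, 59 were in the 97 endothelial-like cells (47.5 CPM) and 14 in the 55 microglia-like cells (23.6 CPM). In cKO 22 of 59 UMIs were in the 113 cells of mixed markers, 11 in endothelial-like (14.2 CPM) and 14 in microglia-like cells (35.6 CPM). Ependymal-like cells had 6 and 4 UMIs (7.77 and 14.2 CPM), and in cKO their interval overlapped that of endothelial-like cells. Excitatory neuron-like cells had 3 and 1 *Atf3* UMIs and radial glia/astrocyte-like cells 11 and 4, and intermediate progenitor-like, oligodendrocyte precursor-like and Cajal-Retzius-like cells had 0 in both libraries. At a total of 1845237 UMIs, 0 in the WT oligodendrocyte precursor-like cells allows a level of up to 1.63 CPM (3 UMIs of the total, counting error only).

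*Egr1* had an order of its own. It was highest in oligodendrocyte precursor-like cells, at 912 CPM in WT and 588 CPM in cKO, which was 19.4 and 17.2 times the level of excitatory neuron-like cells (46.9 and 34.2 CPM). Cycling progenitor-like cells (459 and 374 CPM) and radial glia/astrocyte-like cells (435 and 460.3 CPM) followed, with overlapping intervals in WT. Intermediate progenitor-like cells had 156 and 103 CPM, more than either neuron group (74.3 and 68.2 CPM in GABAergic neuron-like cells), although their *Fos* was at the neuronal level. Cajal-Retzius-like cells were lowest with 30 and 20 UMIs. The group of highest *Fos* was thus not the group of highest *Egr1* in either library, and among the 7 groups with at least 50 cells per library this held under all 8 alternative settings of the cell filter, grouping and scaling.

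*Btg2*, an antiproliferative gene known as a mark of progenitors that are about to make neurons, was highest in radial glia/astrocyte-like cells. The level was 335 CPM in WT and 322 in cKO radial glia/astrocyte-like cells, 172 and 107 in cycling progenitor-like cells, 108 and 76.7 in intermediate progenitor-like cells, and 16.3 and 13.1 in excitatory neuron-like cells. Along these groups the level stepped down from radial glia/astrocyte-like to progenitor-like to excitatory neuron-like cells in both libraries. Cells with astrocyte markers held 780 of the 1425 *Btg2* UMIs of the first group in WT and 441 of 1262 in cKO. The steps are thus an order of levels and no lineage series. The radial glia/astrocyte-like level was 20.6 times the excitatory neuron-like level in WT and 24.7 times in cKO. In cKO ependymal-like (157 CPM in WT, 163 in cKO) and endothelial-like cells (103 and 202 CPM) stood above cycling progenitor-like cells, and in WT below them. *Ier2* and *Dusp1* were both led by endothelial-like cells. *Ier2* had 440 and 502 CPM there and 221 and 152 CPM in radial glia/astrocyte-like cells, and *Dusp1* had 217 and 247 CPM there against 98.9 and 90.8 CPM. The endothelial-like interval overlapped that of mural-like cells for *Ier2* in WT (286 CPM) and that of microglia-like cells for *Dusp1* in cKO (214 CPM). *Dusp1* had the least stable order between the libraries (rho 0.63), and its mural-like level rested on 4 UMIs in WT and 26 in cKO.

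The share of cells with a UMI was compared at equal depth. After each cell was thinned to 1000 UMIs, *Fos* was found in 56.4% of WT and 48.8% of cKO radial glia/astrocyte-like cells, and in 7.5% and 6.1% of excitatory neuron-like cells. Without thinning the shares were 89.2% and 85.7% against 37.9% and 35.3%, since the cells are deep (median 6548.5 and 8250 UMIs in radial glia/astrocyte-like, 8783 and 9561 in excitatory neuron-like cells). Thinning kept 619 of 620 and 457 of 461 radial glia/astrocyte-like cells and 2177 of 2184 and 2147 of 2147 excitatory neuron-like cells. No cell type is known to lack *Fos*, so a background share could not be read from these cells. At 1000 UMIs a mean of 2.90 of the 10 members was found per WT radial glia/astrocyte-like cell and 2.67 per cKO cell, against 0.88 and 0.99 in excitatory neuron-like cells. Radial glia/astrocyte-like cells with no member at all were 6.62% and 7.22%, and those with 4 or more members were 35.5% and 31.5%.

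**Figure D2:**
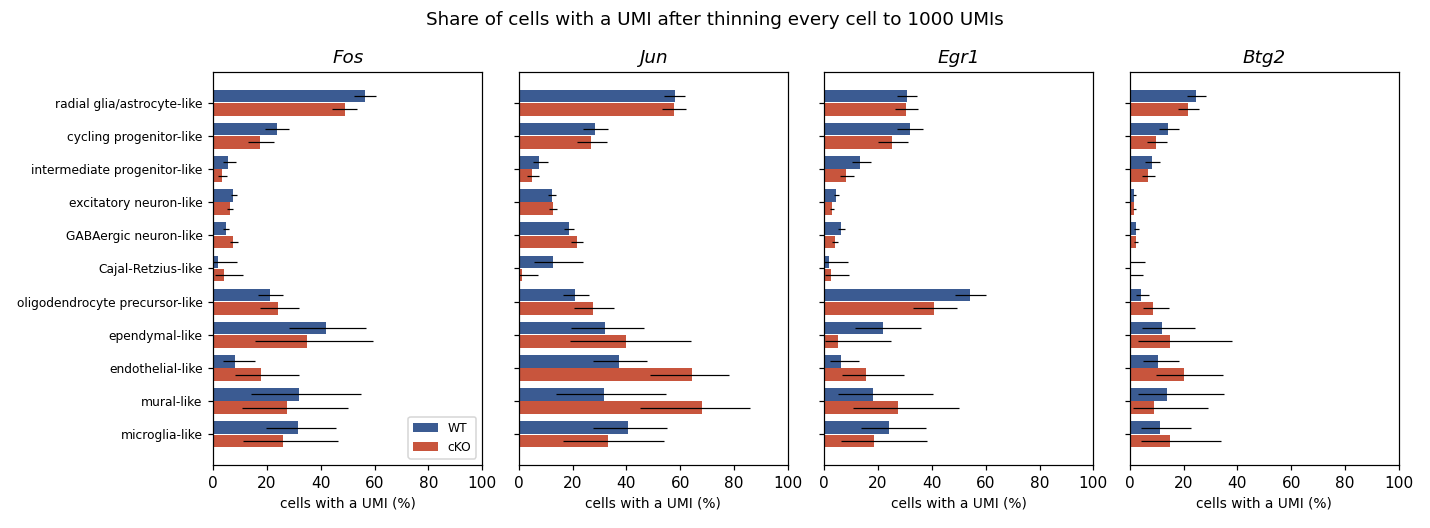
Percentage of cells with at least 1 UMI of *Fos*, *Jun*, *Egr1* and *Btg2* after thinning every cell to 1000 UMIs, by cell group, in WT (blue) and cKO (red), with exact 95% binomial intervals. *Fos* was found in 56.4% of WT and 48.8% of cKO radial glia/astrocyte-like cells, and *Egr1* was most often found in oligodendrocyte precursor-like cells.

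*Fosb* and *Egr1* were found more often in radial glia/astrocyte-like cells that also had *Fos* than in those without it. Among the thinned WT radial glia/astrocyte-like cells, 32.7% of those with *Fos* also had *Fosb*, against 12.6% of those without *Fos*. In cKO the shares were 24.7% and 8.55%. *Egr1* was found in 37.5% of WT cells with *Fos* and 21.9% of those without it, and in 44.4% and 17.1% of the cKO cells. The correlation of presence and absence was 0.23 for *Fos* with *Fosb* and 0.13 for *Fos* with *Jun* over 619 WT cells, a description of weak sharing in sparse counts from cells of 1 library. In WT excitatory neuron-like cells it was 0.084 for *Fos* with *Fosb* and -0.027 for *Fos* with *Jun*, so no sharing of *Fos* with *Jun* was seen there. This correlation is also held down where few cells have a UMI, so its size does not compare the groups.

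Genes whose level over the 7 groups with at least 50 cells per library was most like that of *Fos* were *Fam181a* (mean Pearson's r 0.98 of log2(CPM + 10), both libraries), *Sptssa*, *Ssr3*, *Smim15* and *Rgs20*, out of 10612 genes compared. Among the members *Fosb* ranked 39 (r 0.97) and *Jun* 398 (r 0.89), and *Jund* ranked 3847 (r 0.33). For *Btg2* the 5 genes were *Otx1* (r 0.96), *Tmem106c*, *Dhrs4*, *Ptgds* and *Fzd2*, and *Fos* ranked 580 (r 0.81). With 7 points from shared libraries these r values describe likeness only.

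Between the genotypes the members differed little when all cells were summed. *Fos* was at 236 CPM in WT and 197 in cKO, *Fosb* at 58.9 and 49.8, *Btg2* at 77.2 and 63.2, *Egr1* at 171 and 125, and *Ier2* at 109 and 78.7. The log2 ratios of cKO over WT were -0.26, -0.24, -0.29, -0.45 and -0.47, and the median of all 14677 genes with at least 50 UMIs was -0.25. *Fos*, *Fosb* and *Btg2* thus sat at the median gene, 49.5%, 50.4% and 48.2% of genes being lower, and under TMM scaling, which moves the all-gene median to 0.02, the direction of *Fos* (0.0052), *Fosb* (0.022), *Jun* (0.20), *Junb* (0.11) and *Dusp1* (0.16) turned. *Btg2* (-0.023), *Egr1* (-0.19) and *Ier2* (-0.21) stayed lower under it. *Jund* was the member furthest above the median, at 708 CPM in WT and 941 in cKO (0.41, 0.39 to 0.43), higher than 84.8% of genes. *Atf3* was furthest below, at 3.65 and 1.08 CPM (-1.76, -2.20 to -1.33). It was the only member past 2-fold over all cells, and 0 were higher by that measure, while 19.8% of all genes were at least 2-fold lower and 2.67% at least 2-fold higher. Summed cells mix a difference in cell numbers with a difference per cell, so the groups were compared next.

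Within groups, too, most ratios were small. Of 60 pairs of member and group with at least 50 UMIs over the 7 groups, 57 were within 2-fold, 1 was at least 2-fold higher in cKO (*Btg2* in oligodendrocyte precursor-like cells) and 2 were at least 2-fold lower (*Jun* and *Egr1* in Cajal-Retzius-like cells). The share over all genes was 3.72% higher and 11.3% lower. The members' counts stand below those shares, but they rest on 1 and 2 pairs. The higher count was 3 of 53 pairs against 5.53% with the stricter filter. It was 3 of 59 against 3.78% without the 5% of cells richest in members. So few pairs do not set the members apart from all genes. The median ratio of the 60 pairs was -0.12.

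**Figure D3:**
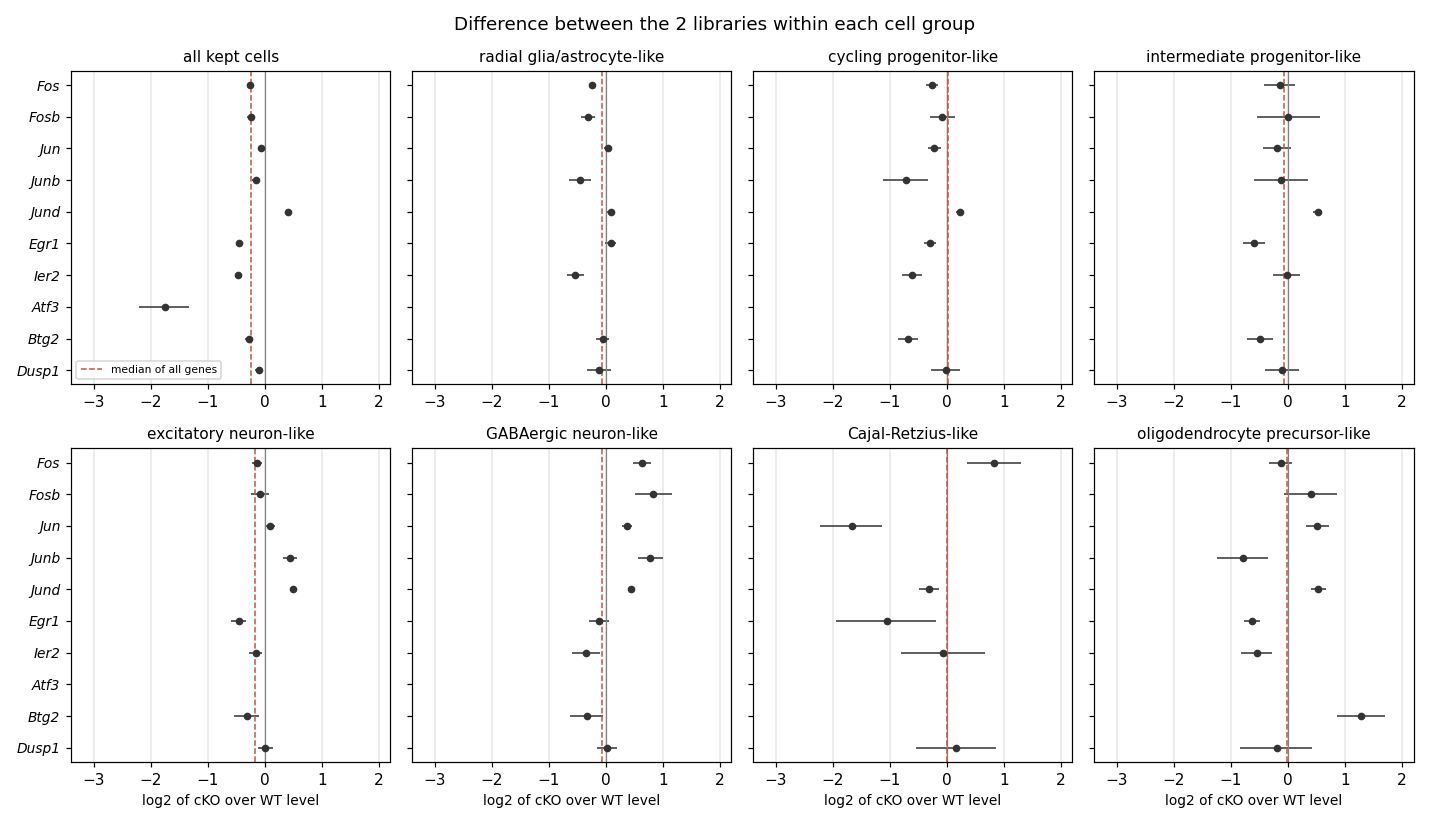
Log2 ratio of the cKO over the WT level of each member in all kept cells and in 7 cell groups, with exact 95% counting intervals and the median ratio of all genes as a dashed line. Members with fewer than 50 UMIs are left out. *Fos*, *Fosb* and *Junb* were above the line in GABAergic neuron-like cells, and *Junb* was below it in cycling progenitor-like, radial glia/astrocyte-like and oligodendrocyte precursor-like cells.

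In GABAergic neuron-like cells the Fos and Jun genes among the members were higher in cKO, none of them past 2-fold. *Fos* was at 70.7 CPM in WT and 109.5 in cKO (log2 ratio 0.63, 0.48 to 0.78), *Fosb* at 14.9 and 26.4 (0.83, 0.51 to 1.16), *Junb* at 33.9 and 58.1 (0.78, 0.56 to 0.99), *Jun* at 213 and 275 (0.37, 0.28 to 0.46) and *Jund* at 832 and 1133 (0.44, 0.40 to 0.49). Of the 10 measured genes listed as AP-1 partners in a broad sense, outside the members, 1 was at least 2-fold higher there and 2 were at least 2-fold lower. The shares of all genes in that group were 3.81% and 14.2%. The 5 Fos and Jun genes were above the median of all genes in that group, -0.077, and *Fosb* was higher than 93.1% of the genes. *Egr1* (-0.12) and *Dusp1* (0.020) had intervals that included 0, and *Ier2* (-0.35) and *Btg2* (-0.34) were lower. With a stricter filter of at least 1000 genes and at most 5% mitochondrial UMIs the *Junb* ratio was 0.17. In excitatory neuron-like cells *Junb* was at 42.8 and 58.0 CPM (0.44, 0.32 to 0.56) and *Jund* at 611 and 861 CPM (0.50, 0.46 to 0.53), while *Egr1* was lower in cKO (-0.46, -0.59 to -0.32) and *Fosb* was within counting error of 0 (-0.089). The all-gene median was -0.17 there, and with groups set from cells thinned to 2000 UMIs the *Junb* ratio was 0.16.

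Further markers divided the neurons, and the *Junb* ratio differed between the parts. These sub-groups were chosen after the data had been seen. Among GABAergic neuron-like cells with Lhx6 and Sst type markers (187 WT and 266 cKO cells), *Junb* had 40 UMIs in WT and 209 in cKO (log2 ratio 1.89, 1.40 to 2.42) and *Fosb* 18 and 84 (1.73, 0.98 to 2.55). *Fos* (0.65) and *Jun* (0.30) were higher there too, *Jund* was within counting error of 0 (0.078, -0.044 to 0.20), and *Btg2* was lower, from 33 and 23 UMIs (-1.01, -1.85 to -0.20). Cells with striatal markers had 99 and 122 UMIs of *Junb* (0.77) and *Fos* at 0.17 (-0.25 to 0.58), and cells with neither kind of marker 135 and 113 (-0.033). *Fos* was also higher in the cells with neither kind (0.38, 0.14 to 0.61). In excitatory neuron-like cells *Junb* was at 126 UMIs in WT and 501 in cKO with deep layer markers (1.06, 0.77 to 1.35) and at 693 and 619 UMIs with upper layer markers (0.033, -0.13 to 0.19). Cells with markers of neither layer had 82 and 226 UMIs (0.76, 0.39 to 1.14). *Fos* differed the same way between those layers, 0.59 with deep and -0.14 with upper layer markers. Cells with deep layer markers were 7.78% of the WT and 12.9% of the cKO group, and those with Lhx6 and Sst markers 12.7% and 22.1%. The mixture of each group, as set by marker UMIs, thus differed between the libraries as well. Deeper cells have UMIs of more markers, and cKO cells were deeper. The medians were 8783 UMIs in WT and 9561 in cKO excitatory neuron-like cells, and 4606 and 5359 in GABAergic neuron-like cells. The part of depth in these shares was not tested.

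Radial glia/astrocyte-like cells had slightly less of several members in cKO. *Fos* was at 1285 and 1091 CPM (-0.24, -0.30 to -0.18), *Fosb* at 269 and 217 (-0.31), *Junb* at 127 and 92.9 (-0.45) and *Ier2* at 221 and 152 (-0.54, -0.69 to -0.39). *Egr1* (0.083), *Btg2* (-0.059), *Jun* (0.031) and *Dusp1* (-0.12) had intervals that included 0. Here also the mixture differed: cells with astrocyte markers were 52.1% of the WT and 31.2% of the cKO group. With astrocyte markers *Fos* was at 1498 and 1241 CPM (-0.27), and without them at 1019 and 1012 CPM (-0.0091, -0.095 to 0.077). *Fosb* (0.012) and *Junb* (-0.059) were also within counting error of 0 without astrocyte markers. *Ier2* was lower in both, at -0.82 (-1.08 to -0.57) with the markers and -0.40 (-0.60 to -0.20) without, and *Egr1* was higher without them (0.17, 0.040 to 0.30).

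**Figure D4:**
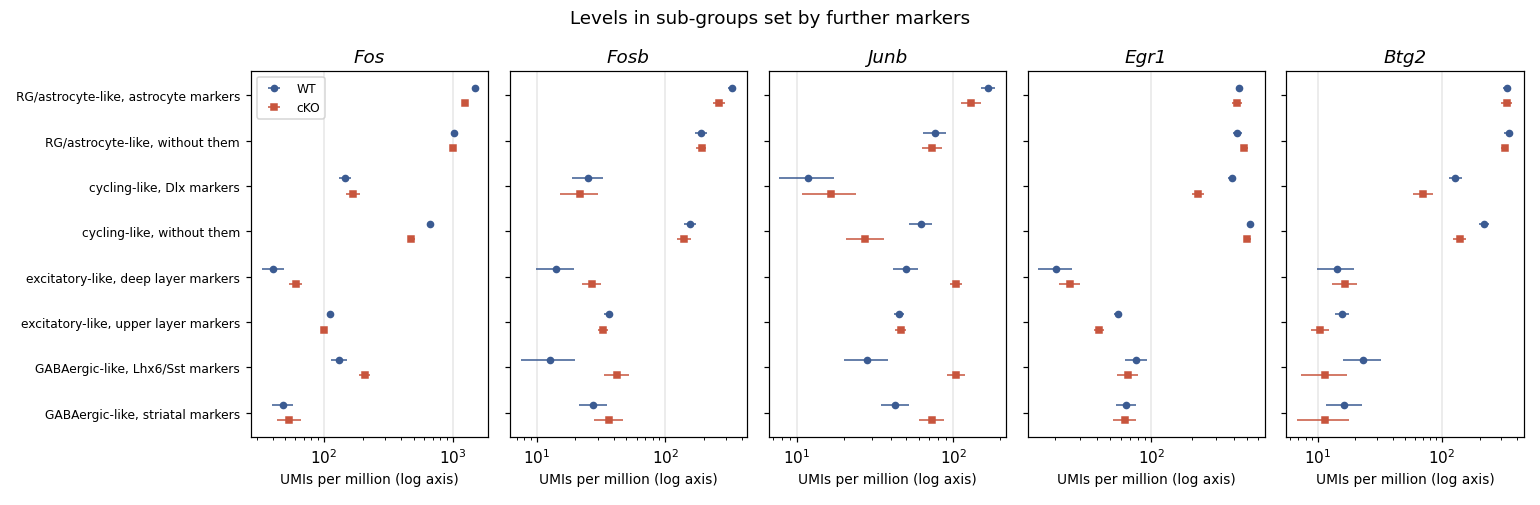
Levels of *Fos*, *Fosb*, *Junb*, *Egr1* and *Btg2*, in CPM on a log axis, in sub-groups of 4 cell groups set by further markers, in WT (circles) and cKO (squares), with exact 95% Poisson intervals. *Junb* stood apart between the libraries in the cells with deep layer and with Lhx6 and Sst markers, and *Fos* in radial glia/astrocyte-like cells without astrocyte markers was at 1019 and 1012 CPM.

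In cycling progenitor-like cells several members were lower in cKO, and this depended on the cell filter. *Btg2* was at 172 CPM in WT and 107 in cKO (-0.68, -0.86 to -0.50), *Ier2* at 173 and 113 (-0.62), *Junb* at 36.9 and 22.4 (-0.72) and *Fos* at 404 and 335 (-0.27), and *Jund* alone was higher (0.23). The median of all genes was 0.014. The members' median ratio was -0.27, and with the stricter filter it was 0.17 against 0.039 for all genes. *Fos* (0.22) and *Jun* (0.35) then turned higher and *Fosb* was at 0.36, while *Ier2* (-0.61) and *Btg2* (-0.31) stayed lower. *Btg2* was lower with Dlx markers (280 and 116 UMIs, -0.85) and without them (475 and 267 UMIs, -0.65). *Egr1* was lower with Dlx markers (-0.81, -0.99 to -0.63) but not beyond counting error without them (-0.073, -0.20 to 0.051). *Fos* itself was far lower in the cycling cells with Dlx markers (146 CPM in WT and 169 in cKO) than in those without (662 and 477 CPM).

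Oligodendrocyte precursor-like cells, 306 in WT and 149 in cKO, moved in both directions. *Btg2* was at 43.9 CPM in WT and 106 in cKO (1.28, 0.85 to 1.71), from 81 and 111 UMIs, and the share of cells with a *Btg2* UMI was 16.0% and 28.2% (4.28% and 8.72% at 1000 UMIs). The ratio was 1.28 (0.51 to 2.06) with markers of committed cells, from 27 and 35 UMIs, and 1.26 (0.74 to 1.79) without them. *Jun* (0.51) and *Jund* (0.53) were also higher, whereas *Egr1* (912 and 588 CPM, -0.63), *Junb* (-0.79) and *Ier2* (-0.55) were lower. In Cajal-Retzius-like cells (62 and 76 cells) *Jun* was at 97 and 42 UMIs (-1.67, -2.23 to -1.14), with a UMI in 62.9% and 19.7% of cells, and *Fos* was at 55 and 134 UMIs (0.82, 0.36 to 1.30).

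The vascular groups were small, and the endothelial-like cells had more of several members in cKO. In 97 WT and 46 cKO endothelial-like cells *Jun* was at 727 and 1315 CPM (0.85, 0.72 to 0.99), *Fos* at 145 and 249 (0.78), *Fosb* at 82.2 and 150.1 (0.87) and *Btg2* at 103 and 202 (0.97), while *Atf3* was lower (47.5 and 14.2 CPM, -1.74, -2.82 to -0.80). *Junb* (0.23) and *Ier2* (0.19) differed less. In the 22 mural-like cells of each library *Jun* (1.09, 0.71 to 1.49) and *Fos* (0.81, 0.21 to 1.44) were higher, and *Ier2* (-0.63), *Junb* (0.33), *Jund* (0.40) and *Egr1* (0.22) had intervals that included 0. Below 50 UMIs there were *Dusp1*, with 4 and 26, *Btg2*, with 10 and 24, *Fosb*, with 13 and 16, and *Atf3*, with 0 in both. The mixture of the mural-like cells differed as well, since their markers *Acta2* (968 and 6.60 CPM) and *Tagln* (664 and 0 CPM) were high in WT only. Microglia-like cells, 55 and 27, had *Fos* levels within counting error of each other (0.041, -0.22 to 0.30) and less *Fosb* in cKO (60 and 19 UMIs, -1.07). *Egr1* was lower in them too (-0.48, -0.88 to -0.095), and *Dusp1* was higher (0.49, 0.047 to 0.94).

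Levels of the members also differed with the mitochondrial share of the barcodes. The mitochondrial share of UMIs was lowest in radial glia/astrocyte-like cells (median 3.88% in WT and 3.90% in cKO) and higher in excitatory neuron-like cells (6.50% and 7.37%). The other groups did not fall in that order: Cajal-Retzius-like cells of WT had 4.85% and the lowest *Fos*, and microglia-like cells had 6.33% and 7.44% with *Fos* at 520 and 535 CPM. In CPM of the UMIs outside mitochondrial genes, *Fos* was at 749 in WT and 373 in cKO barcodes below 2.5% mitochondrial UMIs, at 493 and 459.5 between 2.5% and 5%, and at 160.4 and 160.3 between 5% and 10%. Over these 3 ranges the level fell in WT, while in cKO it was higher in the middle range than in the lowest. It then stayed near that level in the barcodes left out of the analysis, at 158 and 151 above 20%, where *Fosb* was at 91.3 and 98.8 against 52.4 and 55.3 between 10% and 20%. Within radial glia/astrocyte-like cells *Fos* did not differ beyond counting error between cells below and above the median mitochondrial share in WT (1376 and 1308, log2 -0.073, -0.15 to 0.0044) but was higher above it in cKO (962 and 1300.4, log2 0.43, 0.35 to 0.52). Cycling progenitor-like cells went the other way, with *Fos* lower above the median share in WT (481 and 362, log2 -0.41) and in cKO (483 and 232, log2 -1.06, -1.23 to -0.88), and so did intermediate progenitor-like cells of cKO (-1.13, -1.51 to -0.76) but not of WT (0.49). The part of mitochondrial share in the differences was not tested.

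The other genes of the pathway gave a mixed picture over all kept cells. A list of 13 leucine zipper genes outside the members took AP-1 partners in a broad sense that includes CRE-binding factors. Of these, 11 were measured at 50 UMIs or more, 0 were at least 2-fold higher in cKO and 1 was at least 2-fold lower. That gene was *Crem*, a CRE-binding factor (13.2 and 6.12 CPM, -1.11). Their median was 0.34, above the all-gene median of -0.25, with *Atf4* (0.46) and *Mafg* (0.45) highest. Of 31 other immediate early genes *Per1*, a clock gene with early induction, was the one past 2-fold higher (10.6 and 40.2 CPM, 1.92), followed by *Ctgf* (0.98). *Egr4* (-1.35) and *Egr2* (-1.01), relatives of *Egr1*, were the 2 past 2-fold lower, and the list's median was 0.063. Among 19 upstream factors and kinases 4 were at least 2-fold lower and 0 higher (median -0.44), with *Map2k1*, a MAP kinase kinase (31.5 and 12.3 CPM, -1.35), and *Elk3*, an Ets factor (-1.26), lowest and the JNK genes *Mapk9* (0.90) and *Mapk8* (0.59) highest. Of 14 feedback phosphatases and corepressors 1 was past 2-fold lower, *Spry4* (-1.07), followed by *Nab2*, a corepressor of Egr1 (-0.56). *Dusp8* (0.73) and *Dusp14* (0.66) were highest in that list (median 0.18). Of the 4 BTG family genes beside *Btg2*, 1 was past 2-fold higher, *Btg3* (8.34 and 21.0 CPM, 1.33), and 0 lower. *Tob1* was at 0.72 and *Tob2* at 0.57, while *Btg1* was at 217 CPM in both (-0.0020, -0.039 to 0.035) and the median was 0.65. Heat shock and unfolded protein genes, which cell handling also induces, had 3 of 14 past 2-fold lower and 0 higher (median -0.36). *Hspb1* (13.6 and 2.93 CPM, -2.22) and *Hspa1a* (110 and 29 UMIs, -1.90) were lowest and *Dnajb1* (0.68) and *Hsp90ab1* (0.41) highest. These counts stand beside the 19.8% and 2.67% of all genes given above. Several rested on the scaling, since TMM adds 0.26 to every log2 ratio over all cells. With TMM 5.91% of all genes were at least 2-fold higher and 13.3% at least 2-fold lower. Under it the upstream list had 1 gene lower (*Map2k1*) and 1 higher (*Mapk9*), the other immediate early genes 1 lower (*Egr4*) and 2 higher (*Per1* and *Ctgf*), and *Crem* (-0.84) and *Spry4* (-0.81) were no longer past 2-fold. The counts of the BTG family and of the heat shock list stayed the same. The sums also mix cell numbers with levels per cell. The upstream median was -0.41 in excitatory neuron-like, -0.087 in Cajal-Retzius-like and -0.072 in intermediate progenitor-like cells. It was -0.065 in radial glia/astrocyte-like, 0.080 in cycling progenitor-like and 0.17 in GABAergic neuron-like cells. Among these groups the feedback median ran from -0.10 (Cajal-Retzius-like) to 0.88 (intermediate progenitor-like).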

How the data were processed

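Cells of 1 WT and 1 cKO library were captured on the 10x Genomics Chromium platform. The deposited matrices hold UMI counts per gene and barcode, which the authors made with Cell Ranger, and no normalization had been applied to them. The submitters' processing notes name the mm9 build, STAR, Cell Ranger 2 and Seurat, while the matrix header names software version 3.0.1, and the strand setting is not given in the sources used here. Barcodes with at least 500 genes and at most 10% mitochondrial UMIs were kept, and doublets were called with Scrublet in scanpy 1.11.5 at an expected rate of 8% and removed (184 WT and 131 cKO), because the default rate marked 0 cKO cells. Kept cells held 55615534 WT and 54593186 cKO UMIs. A cell joined a group when it had UMIs of at least 4 to 7 distinct markers of it, by group, from 14 marker lists. Some overlaps are called mixed, such as excitatory with GABAergic neuron lists. Others were ranked, with intermediate progenitor above excitatory neuron, and cycling progenitor above neuron, intermediate progenitor and radial glia/astrocyte lists. Oligodendrocyte precursor and ependymal stood above cycling progenitor and radial glia/astrocyte lists, and Cajal-Retzius above neuron lists.

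UMIs were summed per group and library and scaled to CPM. Levels carry exact 95% Poisson intervals, ratios exact intervals of 2 Poisson counts, and shares exact (Clopper-Pearson) binomial intervals (scipy 1.17.1, Python 3.11.15), all for counting error only, since 1 library per genotype leaves no replicate. More cells of a type and more RNA per cell cannot be told apart in sums over all cells. Ratios were taken for genes with at least 50 UMIs over both libraries. Values are counts of transcript ends, so levels were not compared between genes. TMM factors came from edgeR 4.0.16 in R 4.3.3. The computation of the ratios and intervals was checked on simulated Poisson counts. Since the intervals assume such counts, this does not show how well they cover UMIs that are clumped in few cells.

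The text names all 10 members, the 5 genes most like *Fos* and *Btg2* among those with at least 200 UMIs per library, and, for each of 6 gene lists (AP-1 partners, other immediate early genes, upstream factors and kinases, feedback phosphatases, the BTG family, heat shock genes), the 2 highest and 2 lowest ratios. The members, lists and markers were chosen with earlier results of these data known. The alternatives were the cell filter, doublets, the scaling, the totals, the thinning depth, the marker minimum and leaving out the 5% of cells with most member UMIs. Further sub-groups, the default doublet rate and TMM scaling of the gene lists were added after seeing the data.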

Additional observations from a re-analysis of the deposited data

Results flagged for a closer look

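For 6 members the ratio of cKO over WT had opposite signs in 2 cell groups, with both counting intervals apart from 0 before and after TMM scaling. The share of all genes that meet this rule was not taken, so the count is no result about these members. The differences between the groups were not tested, since each genotype has 1 library. *Fos* had a log2 ratio of 0.82 in Cajal-Retzius-like and -0.27 in cycling progenitor-like cells. The second value was 0.22 with the stricter cell filter and 0.21 (-0.027 to 0.45) with Dlx markers. *Fosb* was at 0.83 in GABAergic neuron-like and -0.31 in radial glia/astrocyte-like cells. The latter was 0.012 without astrocyte markers. *Jun* was at 0.51 in oligodendrocyte precursor-like and -1.67 in Cajal-Retzius-like cells. *Junb* was at 0.78 in GABAergic neuron-like and -0.79 in oligodendrocyte precursor-like cells. The first was -0.033 with neither Lhx6 and Sst nor striatal markers and 0.17 with the stricter filter. *Jund* was at 0.53 in oligodendrocyte precursor-like and -0.31 in Cajal-Retzius-like cells. *Btg2* was at 1.28 in oligodendrocyte precursor-like and -0.68 in cycling progenitor-like cells.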

How the results depend on the processing

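No paired analysis was possible because each genotype has 1 library, and no replicate could be left out. Of the values that answer a comparison, 39 kept within their limits under an alternative and 15 moved. Among the single ratios 570 kept, 137 moved and 27 reversed. The cause of these changes was not tested. Reversed means that the main interval lay apart from 0 and the sign changed, whether or not the new interval included 0. With at least 1000 genes and at most 5% mitochondrial UMIs (1634 WT and 1312 cKO cells), the log2 ratio of cKO over WT reversed for *Jun* over all cells (0.10), *Ier2* (0.51) and *Btg2* (0.59) in excitatory neuron-like, *Btg2* in intermediate progenitor-like (0.45), and *Fos* (0.22) and *Jun* (0.35) in cycling progenitor-like cells. TMM scaling reversed *Fos* (0.0052), *Fosb* (0.022), *Jun* (0.20), *Junb* (0.11) and *Dusp1* (0.16) over all cells and *Fos* (0.058) and *Ier2* (0.033) in excitatory neuron-like cells. Groups set from cells thinned to 2000 UMIs reversed *Btg2* in GABAergic neuron-like cells (0.18). Sub-groups reversed *Fos* (0.59), *Egr1* (0.34), *Ier2* (0.31) and *Btg2* (0.22) with deep layer markers, *Fos* (0.17), *Jun* (-0.064) and *Egr1* (0.046) with markers of neither layer, *Fos* (0.44) and *Ier2* (0.90) with both, *Junb* in GABAergic neuron-like cells with neither kind of marker (-0.033), *Fosb* in radial glia/astrocyte-like cells without astrocyte markers (0.012), and *Fos* (0.21) and *Junb* (0.47) in cycling cells with Dlx markers. Among these sub-group reversals the new interval lay apart from 0 only for *Fos* with deep layer markers (0.26 to 0.93) and for *Fos* (0.081 to 0.81) and *Ier2* (0.36 to 1.47) with both. The other sub-group intervals included 0. Of 60 pairs of member and group, 1 was at least 2-fold higher. With the stricter filter 3 of 53 were (5.53% of all genes' pairs), without the 5% of cells richest in members 3 of 59 (3.78%) and with thinned groups 2 of 55 (3.92%). The 2 pairs at least 2-fold lower became 1 without those cells (11.2% of all genes' pairs) and 1 under TMM (9.1%). *Fos* in radial glia/astrocyte-like over excitatory neuron-like cells (log2 3.81 in WT, 3.71 in cKO) was 4.14 and 4.06 with the stricter filter and 4.10 and 4.05 as a mean of cell CPM, and in cKO 3.62 without the 5% richest cells and 3.90 with thinned groups. The share of radial glia/astrocyte-like cells with a *Fos* UMI was 74.6% in WT and 67.3% in cKO at 2000 UMIs and 89.2% and 85.7% without thinning. Ratios from fewer than 100 UMIs, as in Cajal-Retzius-like and mural-like cells, are limited by depth.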
